A study of Mus musculus with 25 samples.

Results

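The Myc family and its partners comprised 9 of the 48440 genes in the count table: *Myc*, *Mycn* and *Mycl*, their dimerization partner *Max*, and the MAX or MLX partners *Mga*, *Mnt*, *Mlx*, *Mxd3* and *Mxd4*. They were taken as the rows whose Ensembl gene ID maps to these symbols. The set was chosen by measured values: *Myc* CPM was over 2 times higher in every edited clone than in any unedited library while changing little with dose. The dose series and the comparison of clones with unedited cells are therefore described for these genes without a p-value, and support nothing about *Myc*. Comparisons among the clones were not used in the choice and are tested.

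RNA was read from the 3′ ends of transcripts (mcSCRB-seq, a bulk protocol that counts unique molecular identifiers, UMIs) in 25 libraries of E14 mouse embryonic stem (ES) cells, a feeder-free line kept in serum medium plus LIF, the cytokine that sustains self-renewal. Unedited cells (genotype WT) received 0, 2.5, 5, 7.5 or 10 µM CHIR99021, an inhibitor of the kinase GSK3β that stabilizes β-catenin, for 48 h, with 2 libraries per dose. The other 15 libraries were 15 clones without CHIR99021 (0 µM), each heterozygous for 1 of 11 missense mutations at codon 37, 41 or 45 in exon 3 of *Ctnnb1*, the gene for β-catenin. In these clones a selection cassette targeted to one *Ctnnb1* allele had been exchanged for the mutated sequence, so each had passed through targeting, exchange and clonal growth. No unedited clone was analysed here, and the mutation and the clonal history cannot be told apart.

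The study ordered the mutations by a mutation effect score (MES), measured with a TCF/LEF reporter in sorted ES cells, and placed the clones in 3 MES categories by clustering their transcriptomes. Clones of T41S (H8), T41N (D3) and S45C (D3) were low. Clones of S45P (G5) and S45F (D9, C1) were medium. The 9 high clones carried T41I (A6, B9), T41A (E6, C1), S37Y (A5), S37F (G1, H2), S37C (G12) or S37A (A10). Because the categories were drawn from these same libraries, p-values between them are not independent of expression, and the fit on the order of mutations by reporter score, which uses no expression value from these libraries, is given beside each member that passed. Nothing in the labels says that the libraries came from separate cultures, so p-values measure the spread between these libraries.

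MYC, MYCN and MYCL are basic helix-loop-helix leucine zipper transcription factors that bind DNA as dimers with MAX and activate genes of ribosome biogenesis, metabolism and the cell cycle. MNT, MXD3 and MXD4 compete for MAX and repress, MGA pairs with MAX in a Polycomb-like complex that silences germline genes, and MLX is the partner of a parallel, nutrient-sensing branch. In ES cells *Myc* is known as a target of LIF-STAT3 and β-catenin signaling, and *Mycn* overlaps with it in maintaining self-renewal.

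Short stretches of promoter are shown because MYC-MAX and MAX-repressor dimers bind the E-box, whose letters are CACGTG. RefSeq promoter windows of 300 bases (GRCm38.p6) around the annotated start were found for 8 members, all except *Myc*, and both strands were searched. An E-box was in 4 of the 8, against 7.15% of 32851 windows. The TCF core CTTTGA, the letters that TCF and LEF partners of β-catenin recognize, reads TCAAAG on the other strand. It was in 1 of the 8, *Mycn*, against 16.0% of windows. The *Mycn* match lies inside the gene as annotated by GENCODE M21, whose start for *Mycn* differs from that of RefSeq. The matches, with capitals marking the motif and the gene's own strand shown, are given here, and a match is a description rather than a site:
Max, chr12:76962234-76962263 (minus strand): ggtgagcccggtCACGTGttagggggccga
Mnt, chr11:74830789-74830818 (plus strand): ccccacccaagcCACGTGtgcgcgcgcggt
Mlx, chr11:101087238-101087267 (plus strand): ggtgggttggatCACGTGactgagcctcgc
Mxd4, chr5:34187912-34187941 (minus strand): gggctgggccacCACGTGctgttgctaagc
Mycn, chr12:12941832-12941861 (minus strand): atcccccgagctTCAAAGcgcagccagtga

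Libraries held 306157 to 2083398 counts, and levels are given as CPM, counts scaled to the library total. Where no count was seen, a true value of up to 3 counts is possible (1.44 to 9.80 CPM). Mitochondrial transcripts took 0.485 to 1.46% of counts in the unedited libraries and 1.53 to 2.52% in the clones, with no overlap. This separates the same 2 sets of libraries as the edit, and its part in the differences between them was not tested. Of the 10 ES cell markers, all were detected in every set of libraries, with *Tdgf1* highest (mean 1852 CPM untreated, 1003 in clones) and *Pou5f1*, which encodes the defining factor OCT4, low (17.2 and 19.9 CPM). How fully the reads of each gene were counted was not tested, so these levels do not rank genes by RNA amount. *Ctnnb1* averaged 455 CPM ± 48.1 (SD, n = 10) in unedited libraries and 484 ± 33.5 (n = 15) in clones, which does not check the genotype because 3′ counts do not read exon 3. In bulk RNA, fewer cells of a kind and less RNA per cell cannot be told apart.

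*Myc* (ENSMUSG00000022346.14, chromosome 15, 61985391-61990374, GRCm38) was low in every unedited library and high in every clone. The 2 libraries at each dose gave 13.05 and 13.8 CPM at 0 µM, 15.8 and 7.62 at 2.5 µM, 11.5 and 9.12 at 5 µM, 10.2 and 9.80 at 7.5 µM, and 13.1 and 10.5 at 10 µM. These rest on 4 to 24 counts per library, and the Wilson 95% interval (counting error only) of the deepest untreated library was 8.77 to 19.4 CPM. No order by dose was visible: the fitted change was -0.03 ± 0.04 (SE) log2 per µM, with an interval of -0.11 to 0.04, and 0.00 log2 per µM without both 0 µM libraries. In the same libraries all 9 tested β-catenin targets rose with dose.

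In the 15 clones *Myc* ranged from 37.4 CPM in S37F clone H2 through a median of 89.95 to 121 in S37Y clone A5. The low category read 101 in T41S clone H8, 101 in S45C clone D3 and 115 in T41N clone D3, and the medium category 62.1 and 96.3 in the S45F clones and 63.9 in S45P clone G5. The high category had a median of 88.7 CPM. The lowest clone was 2.36 times the highest unedited library, and the means differed 6.46 times (86.8 ± 21.5 CPM, SD, n = 15, against 13.4 ± 0.549, n = 2). These are the values that chose the set. Of 11018 genes, 0.0363% (4 genes) met the same condition, the others being *Mat2a* (ratio 2.64), *Zfp936* (2.41) and *Sfpq* (2.36), named after their values were seen.

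**Figure D1:**
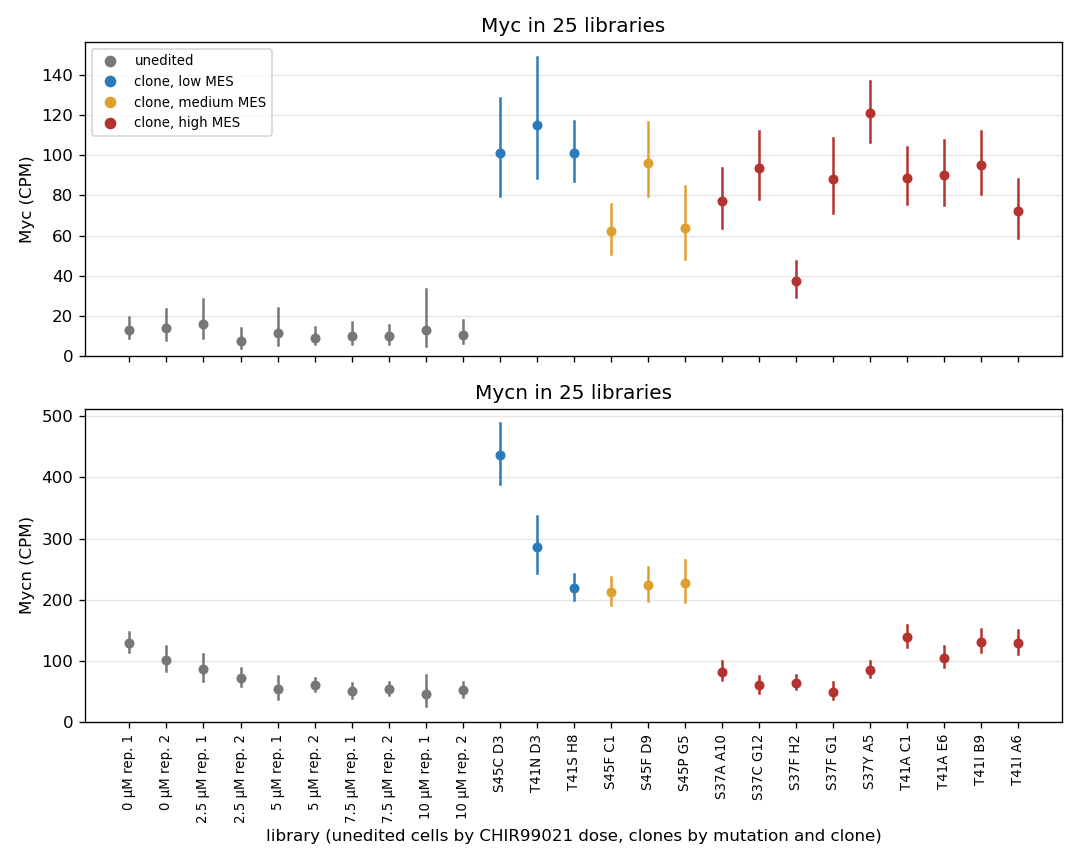
*Myc* (top) and *Mycn* (bottom) in CPM on linear axes from 0, 1 point per library with its Wilson 95% interval, which covers counting error only. *Myc* lies between 7.62 and 15.8 CPM in the 10 unedited libraries and between 37.4 and 121 in the 15 clones, whereas *Mycn* is lower at higher CHIR99021 doses and lower in the high MES category than in the other clones.

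No difference in *Myc* between mutation categories passed the test. The log2 difference was -0.31 ± 0.22 (SE) between high and low (edgeR quasi-likelihood test, Benjamini-Hochberg adjusted p = 0.317, interval -0.74 to 0.12), 0.22 ± 0.22 between high and medium (adjusted p = 0.622) and -0.53 ± 0.28 between medium and low (adjusted p = 0.229). By the order of mutations it was -0.04 ± 0.03 log2 per rank (adjusted p = 0.284). Codon 37 and codon 41 clones of the high category averaged 83.4 ± 30.4 CPM (n = 5) and 86.5 ± 9.94 (n = 4), a log2 difference of -0.07 with an interval of -0.52 to 0.39. The SD of log2 CPM was 0.50 within the 4 mutations that had 2 clones and 0.42 over all clones. The former rests on 4 unlike pairs. The widest was S37F, at 37.4 CPM in clone H2 and 88.0 in clone G1. The closest was T41A, at 88.7 CPM in clone C1 and 89.95 in clone E6.

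*Mycn* (ENSMUSG00000037169.14, chromosome 12, 12936093-12941914, GRCm38), which also encodes a MAX-binding activator and has the TCF core shown above, was lower at higher doses and differed widely between clones. Untreated libraries gave 129 and 102 CPM, followed by 86.2 and 72.4 at 2.5 µM, 54.3 and 60.5 at 5 µM, 50.8 and 54.2 at 7.5 µM, and 45.7 and 52.0 at 10 µM. Both untreated libraries exceeded all 8 treated ones, and the 4 libraries at 7.5 and 10 µM lay within 45.7 to 54.2 CPM. The mean was 2.37 times lower at 10 µM than at 0 µM, and the slope was -0.13 ± 0.02 (SE) log2 per µM, or -0.09 without both 0 µM libraries. In this fit 12.5% of all 10033 genes passed the threshold (5.89% higher and 6.63% lower). No p or call is given for the members because the dose series was part of the choice.

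Among the clones *Mycn* was lower in the high MES category than in the others. Against the untreated libraries (129 and 102 CPM), 9 clones were above both, including all low and medium clones, and 5 were below both. The log2 difference of all clones from untreated cells was 0.44 ± 0.58 (SE). In the dose series, by contrast, all treated libraries lay below both. The low category read 436 CPM in S45C clone D3, 287 in T41N clone D3 and 220 in T41S clone H8. The medium category was close to uniform, at 213 and 224 in the S45F clones and 228 in S45P clone G5. The 9 high clones ran from 50.1 in S37F clone G1 through a median of 85.9 to 140 in T41A clone C1, so the lowest of the 6 other clones was above the highest of these 9.

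High clones averaged 94.4 ± 33.6 CPM (SD, n = 9), low clones 314 ± 111 (n = 3) and medium clones 221 ± 7.72 (n = 3). *Mycn* was 3.24 times lower in high than in low clones (log2 -1.70 ± 0.23, SE, adjusted p = 7.2e-06, edgeR) and 2.27 times lower than in medium clones (log2 -1.19 ± 0.23, adjusted p = 0.00659). Medium and low clones differed by -0.51 ± 0.29 log2 (adjusted p = 0.28, interval -1.08 to 0.06). By the order of mutations the slope was -0.21 ± 0.04 log2 per rank (adjusted p = 0.000535), and leaving out any 1 clone kept the difference from low clones between -1.91 and -1.38 with adjusted p of at most 0.000291. Clones of an identical mutation were alike, with a within-mutation SD of 0.19 log2 against 0.90 over all clones. The fits count each clone separately, so such pairs are not independent values of a mutation. With counts summed per mutation, 240 of all genes passed between high and medium clones, in place of 471.

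Within the high category *Mycn* also separated by codon. The 5 codon 37 clones read 85.9 CPM (S37Y clone A5), 82.6 (S37A clone A10), 64.1 and 50.1 (S37F clones H2 and G1) and 60.7 (S37C clone G12). The 4 codon 41 clones read 140 (T41A clone C1), 106 (T41A clone E6), 132 (T41I clone B9) and 130 (T41I clone A6), with no overlap. The log2 difference was -0.88 ± 0.15 (SE, adjusted p = 0.0489), that is 68.7 ± 15.2 CPM (n = 5) against 127 ± 14.7 (n = 4). Of 9550 genes, 0.0733% (7) passed here (0.0524% lower), the others being *Ctsc* and *T* (higher at codon 37) and *Enah*, *Ifitm3*, *Mest* and *Tcf7l1* (lower), named after their values were seen. The call was at the edge of the threshold: it held when S37Y clone A5 was left out, was lost when any 1 of the other 8 clones was left out (adjusted p up to 0.295), and was lost with counts summed per mutation (adjusted p = 0.149), while the difference stayed between -0.97 and -0.80 log2 without any 1 clone.

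Marker sums of other cell types also differed between categories. The summed level of the 6 neural markers was 151 to 238 CPM in low, 101 to 142 in medium and 21.6 to 97.0 in high clones, with *Neurog2* at 0 in all clones. The sum of 6 trophoblast markers was 902 to 3050 CPM in low, 175 to 488 in medium and 170 to 367 in high clones. *Krt8* and *Krt18* made up most of it in low clones, with means of 987 and 715 CPM. *Gata3* and *Tfap2c* averaged 13.4 and 39.9 CPM in low and 2.51 and 17.6 in high clones. *Cdx2* and *Elf5* were near 0 and went the other way, at 0.753 and 0 in low and 1.41 and 0.632 in high clones. The 10 ES cell markers summed to 2473 to 3800 CPM in low, 4427 to 5431 in medium and 4555 to 5452 in high clones. In the dose series the neural sum was 41.4 to 91.4 CPM and ES cell markers summed to 3340 to 5260. The trophoblast sum was 342 and 374 CPM untreated and up to 949 in treated libraries, the opposite direction to *Mycn* there, whereas in clones both averaged highest in the low category. The part of these cell types in the *Mycn* differences was not tested.

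*Mycl* (chromosome 4), the third family member, was near the limit of counting in unedited cells, at 3 to 16 counts per library. It read 8.15 and 8.51 CPM untreated and 13.1 and 10.5 at 10 µM, with a range of 4.31 to 13.1 over all doses. In the clones it ranged from 8.26 (S45F clone D9) through 14.6 to 25.1 (S37F clone H2), 14 of 15 being above both untreated libraries. The mean ratio was 1.87, and the log2 difference was 0.90 ± 0.34 (SE). No difference between categories or codons passed (adjusted p 0.315 to 0.915).

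Counts of the 3 family genes were also set against each other within libraries, as shares of counts and not of transcripts. *Myc* made up 9.89% ± 1.73 (SD, n = 2) of the *Myc*, *Mycn* and *Mycl* counts in untreated cells, 16.3% ± 2.65 (n = 2) at 10 µM and 36.0% ± 12.8 (n = 15) in the clones. The share was 25.3% ± 6.09 in low, 23.9% ± 4.72 in medium and 43.6% ± 10.5 in high clones. Summed, the 3 genes gave 124 and 151 CPM untreated and 71.9 and 73.1 at 10 µM. In clones the sum ran from 127 through 242 to 548 CPM and averaged 434 ± 106 in low, 308 ± 19.6 in medium and 196 ± 42.5 in high clones. High clones thus had a family sum below that of the other clones, and the *Myc* share was larger in them on average.

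**Figure D2:**
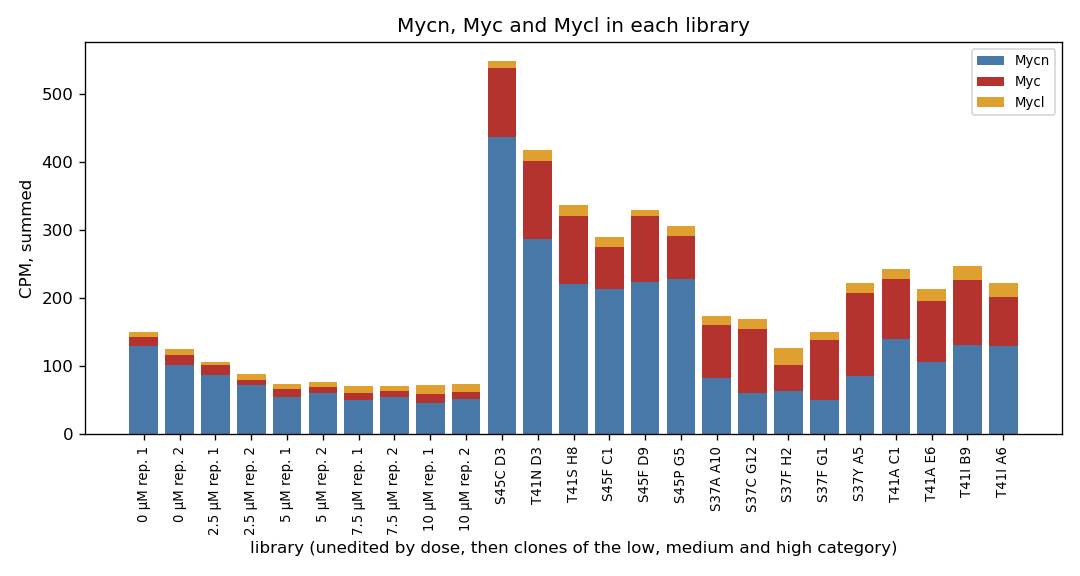
CPM of *Mycn*, *Myc* and *Mycl* stacked for each of the 25 libraries, on a linear axis from 0. The sum falls from 124 and 151 CPM untreated to 71.9 and 73.1 at 10 µM, and the clones carry a visible *Myc* segment of 37.4 to 121 CPM in addition to a *Mycn* segment that is tallest in the low category.

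*Max* (chromosome 12), the obligate partner of the MYC proteins and itself a gene with an E-box across its RefSeq start, was higher in every clone than in any unedited library. Untreated libraries gave 46.7 and 51.0 CPM and all unedited libraries 29.6 to 57.6, with no order by dose (0.01 ± 0.02 log2 per µM, SE). The clones ran from 61.9 (S37F clone H2) through 85.9 to 107 (T41A clone E6), so the lowest clone was 1.07 times the highest unedited library. Such a separation in this direction held for 4.17% of 11018 genes and for 2 of the 9 members, *Max* and *Myc*, the latter having been chosen for it. The mean was 1.76 times that of untreated cells (85.9 ± 14.5 CPM, n = 15, against 48.9 ± 3.03, n = 2; log2 0.80 ± 0.20).

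Between clones and untreated cells 19.7% of 11018 genes passed the threshold (9.94% higher and 9.74% lower). *Myc* was chosen on this contrast, so no p or call is given for the members. This fit rests on 2 untreated libraries, and it called 3.36% and 3.76% of genes with only 1 of them. Among the clones *Max* did not differ by category or codon, with log2 differences of -0.17 to 0.17 and adjusted p of 0.588 to 0.914.

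*Mga* (chromosome 2), the scaffold of the MAX-containing Polycomb-like complex, was similar in clones (53.7 to 104 CPM, mean 84.8 ± 14.1, n = 15) and untreated cells (88.6 and 71.2). Between 2.5 and 10 µM it read 47.4 to 76.1 CPM, with a slope of -0.03 ± 0.02 log2 per µM. No comparison among clones passed (log2 -0.11 to 0.23, adjusted p 0.405 to 0.959).

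Among the MAX-binding repressors, *Mxd3* (chromosome 13) was lower than in untreated cells both at high doses and in the clones. Untreated libraries gave 36.4 and 31.9 CPM, followed by 27.3 and 25.2 at 2.5 µM, 14.8 and 20.6 at 5 µM, 18.9 and 16.1 at 7.5 µM, and 26.1 and 15.1 at 10 µM, where the higher value rests on 8 counts. The clones lay between 12.1 (T41N clone D3) and 25.7 CPM (S45F clone D9), all below both untreated libraries, as for 10.2% of genes. None of the 9 members had every clone below all 10 unedited libraries (2.86% of genes). The clone mean was 2.04 times lower (16.8 ± 3.44 against 34.2 ± 3.20 CPM; log2 -1.03 ± 0.21), and the slope was -0.12 ± 0.03 log2 per µM, or -0.09 without both 0 µM libraries. The dose series and the clone comparison share the 2 untreated libraries. Among clones *Mxd3* did not pass in any comparison (adjusted p 0.416 to 0.949).

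*Mnt* (chromosome 11), the broadly expressed repressor partner of MAX, gave 58.2 and 40.4 CPM untreated and 26.8 to 35.9 in the 8 treated libraries, a slope of -0.07 ± 0.02 log2 per µM that was -0.03 without replicate 1 at 0 µM and -0.01 without both 0 µM libraries. In clones it ran from 22.2 to 56.5 CPM and 0 of 15 exceeded both untreated libraries. High clones averaged 46.7 ± 5.94 CPM (n = 9), medium 40.96 ± 9.92 (n = 3) and low 29.8 ± 7.09 (n = 3). *Mnt* was 1.53 times higher in high than in low clones (log2 0.61 ± 0.20, adjusted p = 0.021), opposite in sign to *Mycn*. This was lost by the order of mutations (adjusted p = 0.13) and without T41N clone D3 (0.0918) or T41S clone H8 (0.0885).

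*Mxd4* (chromosome 5), another MAX-binding repressor, was at or near the limit of detection, at 0 to 17 counts in unedited libraries and 4 to 42 in clones. It was at 0 in 1 library each at 5 and 10 µM, which allows up to 4.94 and 9.80 CPM, and too low for the dose fit. The clones read 4.39 to 23.7 CPM, highest in T41S clone H8 and next in T41N clone D3 (16.1 CPM on 8 counts). Low clones averaged 16.3 ± 7.34 CPM, medium 5.38 ± 1.02 and high 8.19 ± 2.44. The log2 difference was -1.09 ± 0.30 between high and low (adjusted p = 0.00916) and -1.75 ± 0.42 between medium and low (adjusted p = 0.00892). Without T41S clone H8 these became -0.54 (adjusted p = 0.436) and -1.19 (0.253), without S45F clone C1 the latter had adjusted p = 0.0677, and by the order of mutations the former had adjusted p = 0.141.

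*Mlx* (chromosome 11), the partner of the nutrient sensors MLXIP and MLXIPL, read 35.9 and 36.1 CPM untreated, 18.1 to 27.9 in the 8 treated libraries and 26.2 to 48.3 in clones. The treated libraries were all below both untreated ones, with a slope of -0.06 ± 0.03 log2 per µM that was 0.02 without both 0 µM libraries. No difference among clones passed (log2 -0.14 to 0.17, adjusted p 0.511 to 0.991).

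**Figure D3:**
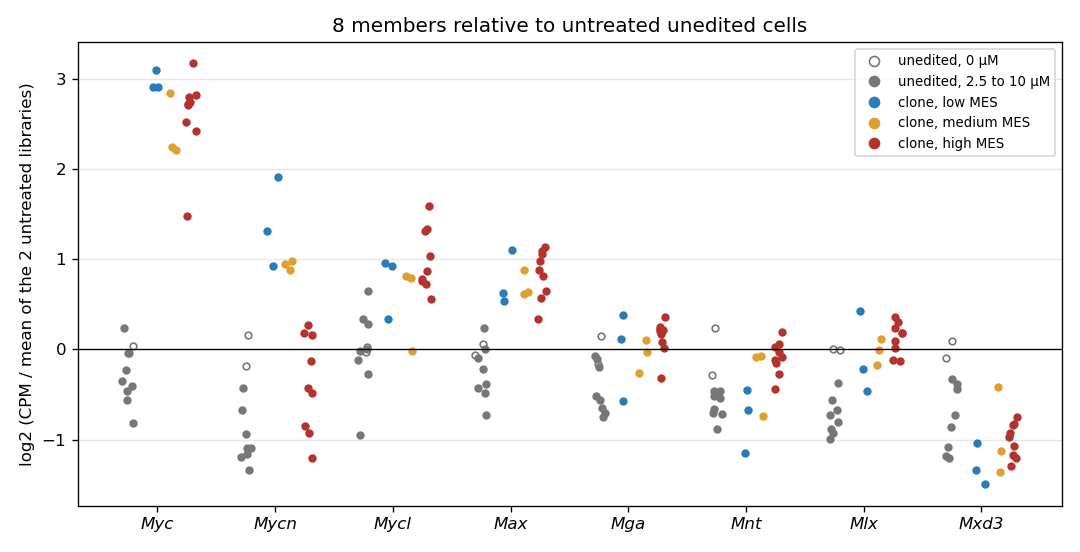
log2 of CPM over the mean of the 2 untreated libraries, 1 point per library, for 8 members; *Mxd4* is left out because 2 libraries are at 0. All clone points of *Myc* and *Max* lie above all unedited points, all clone points of *Mxd3* lie below both open circles, and the *Mycn* points of the high category lie below those of the low and medium categories.

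Over the 9 members, 3 passed between high and low clones (*Mycn* and *Mxd4* lower, *Mnt* higher), against 29.8% of 10452 genes (13.1% higher and 16.6% lower). Between high and medium clones 1 passed (*Mycn*, lower), against 4.51% (2.13% higher and 2.37% lower). Between medium and low clones 1 passed (*Mxd4*, lower), against 11% (3.66% higher and 7.29% lower). The median log2 difference of the members was 0.17, 0.22 and -0.05 in these comparisons, against 0.01, 0.01 and 0.00 over all genes. The members' share is near that of all genes in the comparison of high and low clones.

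**Figure D4:**
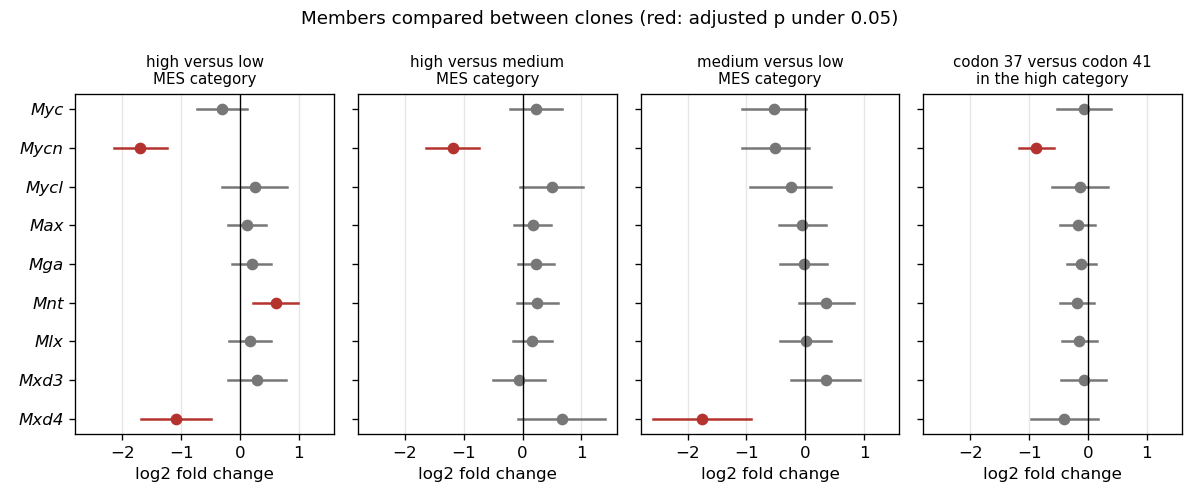
log2 fold change of each of the 9 members with an approximate 95% interval in the 3 category comparisons and the codon comparison. *Mycn* is below 0 with adjusted p under 0.05 in 3 of the 4 panels, and *Myc* has an interval that includes 0 in all 4.

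The counts of the lists that follow stand beside these shares of all genes: 5.89% rose and 6.63% fell with dose, 9.94% and 9.74% in clones against untreated cells, 13.1% and 16.6% in high against low, 2.13% and 2.37% in high against medium, and 3.66% and 7.29% in medium against low clones. The shares called fell to 3.36% or 3.76% in clones against untreated cells with either untreated library left out, and without T41S clone H8 to 15.6% in high against low and 2.61% in medium against low clones. With dose 1.2% were called without both 0 µM libraries.

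Of 8 further network genes, 0 of 7 tested passed with dose (12.5% of all genes), and 1 rose and 2 fell in clones against untreated cells (19.7% of all genes passed). *Mxi1*, another MAX-binding repressor, fell 1.97 times (33.0 ± 8.98 against 64.8 ± 4.44 CPM, adjusted p = 0.00681), and *Arntl*, a clock factor that binds E-boxes, rose 2.38 times (adjusted p = 0.0105). With either untreated library left out, 0 of the 8 passed. Between high and low clones 2 of 6 rose, *Arntl* (log2 0.80, adjusted p = 0.0129) and *Usf2* (0.43, adjusted p = 0.0478), where 13.1% of all genes rose, and 0 of 7 without T41S clone H8.

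Among 20 cofactors and regulators of MYC stability, *Usp28*, a deubiquitinase that stabilizes MYC, was the 1 gene past the threshold with dose (85.8 ± 15.04 CPM at 10 µM against 169 ± 28.5 untreated, n = 2 each, adjusted p = 0.000154) and was 2.29 times lower in clones (adjusted p = 0.00375). The call with dose was lost without both 0 µM libraries, where 0 of 20 passed. In clones 4 of 20 rose (9.94% of all genes), including *Cip2a*, an inhibitor of a phosphatase that destabilizes MYC (1.64 times, adjusted p = 0.0197). The counts were 2 higher and 0 lower without replicate 1 of the untreated libraries, and 1 and 1 without replicate 2. Between high and low clones 3 rose and 3 fell, 30% of the list beside 29.8% of all genes. *Wdr5*, which anchors MYC to chromatin, was highest in high clones (233 ± 11.4 CPM, n = 9, against 146 ± 19.2, n = 3, adjusted p = 2.53e-05). *Gsk3b*, which phosphorylates both β-catenin and MYC for degradation, was 1.73 times lower there (adjusted p = 0.00273). Between medium and low clones *Wdr5* rose and *Gsk3b* fell, between high and medium clones *Ruvbl1* was lower, and 0 of 20 passed by codon. Without T41S clone H8 the 6 calls between high and low clones became 3, and those between medium and low clones were both lost.

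Of 40 textbook MYC-activated genes, 39 were tested and 14 rose and 2 fell in clones against untreated cells (9.94% and 9.74% of all genes), with a median log2 difference of 0.38 against 0.05 over all genes. Among the 14 were the ribosome biogenesis genes *Bop1*, *Rrs1*, *Nop56*, *Nop58*, *Nolc1* and *Mrto4*, *Polr1b*, a subunit of RNA polymerase I (69.1 ± 13.1 CPM, n = 15, against 24.8 ± 7.99, n = 2, 2.67 times, adjusted p = 0.000592), and the amino acid transporter gene *Slc7a5* (2.37 times, adjusted p = 0.012). The 2 that fell were *Ldha*, lactate dehydrogenase (1.63 times lower, adjusted p = 0.0018), and the transferrin receptor gene *Tfrc* (1.52 times lower, adjusted p = 0.0362). With only 1 of the untreated libraries, 3 rose and 0 fell (without replicate 1) or 4 rose and 1 fell (without replicate 2), where 1.79% and 1.36% of all genes rose. With all 10 unedited libraries as the reference, 28 rose and 3 fell, where 28.8% of all genes rose.

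With dose, 1 of the 39 rose, the cyclin gene *Ccnd2* (11.3 ± 0.583 to 65.3 ± 9.27 CPM, adjusted p = 1.2e-06), and 2 fell, *Srm* and *Ptma*, a smaller share than the 12.5% of all genes. Between high and low clones 5 rose and 4 fell (13.1% and 16.6% of all genes). *Shmt2*, of one-carbon metabolism, was 2.11 times higher (adjusted p = 7.07e-05), *Ccnd2* 3.86 times lower (adjusted p = 0.00012) and *Odc1*, of polyamine synthesis, 2.52 times lower (adjusted p = 2.12e-05). Without T41S clone H8 the counts were 3 and 5, and by the order of mutations 2 and 3. Between medium and low clones 2 rose and 1 fell, between high and medium clones 1 fell (*Odc1*), and 0 passed by codon.

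Of 8 textbook MYC-repressed genes, 4 were lower in clones than in untreated cells and 0 higher, where 9.74% of all genes were lower and 9.94% higher. *Ndrg1*, a stress-induced gene that also lies on chromosome 15, fell 4.03 times (16.5 ± 8.24 against 66.1 ± 7.32 CPM, adjusted p = 0.000873) and *Ndrg2* 3.78 times (adjusted p = 0.00153). The count was 3 or 4 with either untreated library left out. With dose 2 rose, the cyclin-dependent kinase inhibitor genes *Cdkn1a* (295 ± 4.49 to 844 ± 16.7 CPM, adjusted p = 8.05e-06) and *Cdkn1c*, and 3 fell (5.89% and 6.63% of all genes). With either 0 µM library left out 2 rose and 1 fell, and without both 1 rose and 0 fell. Between high and low clones *Ndrg2* was 3.71 times higher (adjusted p = 0.000108) and *Cdkn1c* 4.31 times lower (adjusted p = 5.27e-05), with 1 higher and 3 lower in all (13.1% and 16.6% of all genes). High against medium clones gave 1 higher (*Cdkn1a*), medium against low 2 lower, which became 0 without T41S clone H8, and codon 0 of 7.

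Of 11 partners of MGA and MAX in the Polycomb-like complex, 3 rose in clones against untreated cells (*Tfdp1*, 1.66 times, adjusted p = 0.0392; *E2f6*, 1.61 times, adjusted p = 0.0331; and *Wdr5*), where 9.94% of all genes rose, and 0 passed with either untreated library left out. With dose *Yaf2* was the 1 gene past the threshold (higher), against 12.5% of all genes. With either 0 µM library left out 0 passed, and in the libraries of higher mitochondrial share 1 passed, lower. Between high and low clones *Wdr5* was higher and *Yaf2* and *Tfdp1* lower, and between medium and low clones 2 were higher and 1 lower, shares of 3 in 11 beside 29.8% and 11% of all genes. Without T41S clone H8, 0 passed between medium and low clones.

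Germline genes known to be silenced by MAX and MGA in ES cells were higher in high than in low clones. Of 14, 11 were tested and 8 rose, against 13.1% of all genes, with a median log2 difference of 1.20 against 0.01 over all genes. *Stag3*, a meiotic cohesin gene, rose 4.63 times (48.7 ± 12.2 CPM, n = 9, against 11.2 ± 3.45, n = 3, adjusted p = 4.58e-05) and *Dazl*, a germ cell RNA-binding protein gene, 2.90 times (adjusted p = 0.0459). The count fell to 2 of 11 without T41S clone H8, where 6.72% of all genes rose, and to 1 of 11 by the order of mutations, where 7.22% rose. *Dazl* and *Tex19.1* were also higher in high than in medium clones (4.33 and 2.32 times, adjusted p = 0.0385 and 0.0313), *Stag3* was higher in medium than in low clones, a call lost without T41S clone H8, and 0 of 10 passed by codon. *Max* and *Mga* themselves passed in no comparison between these categories.

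With dose 3 of 7 germline genes fell and 0 rose (6.63% and 5.89% of all genes). *Sycp3*, of the synaptonemal complex, went from 151 ± 25.8 CPM untreated to 58.5 ± 5.01 at 10 µM (n = 2 each, adjusted p = 2.99e-05), and it was 2.80 times lower in clones (adjusted p = 0.00562). *Tex19.1* was 4.10 times higher in clones (76.9 ± 35.0 against 18.5 ± 0.672 CPM, adjusted p = 0.0166). Neither passed with only 1 of the untreated libraries, and with dose 1 germline gene passed without replicate 1 at 0 µM and 0 without both 0 µM libraries.

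**Figure D5:**
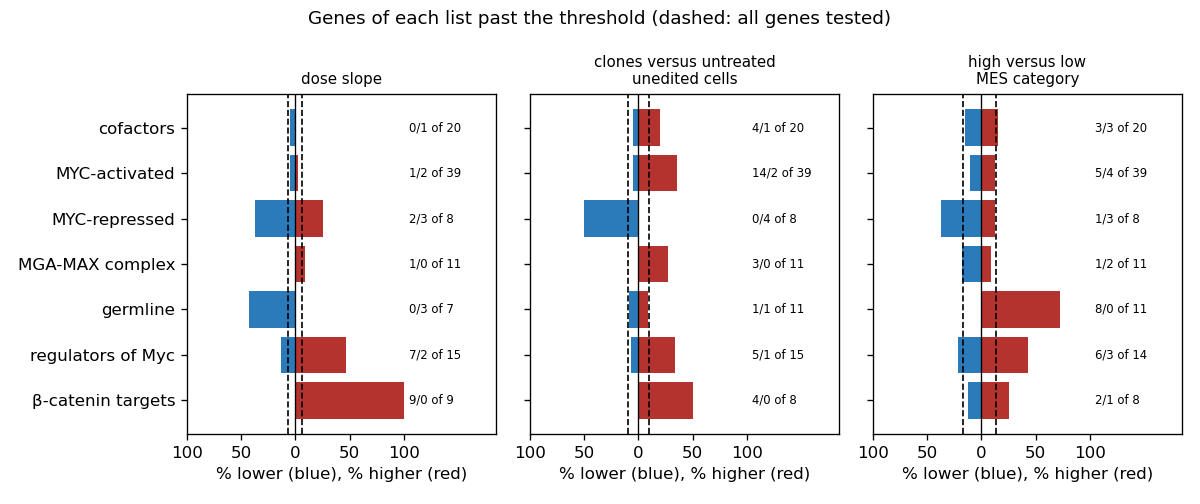
Share of tested genes in each list that passed the threshold, higher (red, to the right) or lower (blue, to the left), with the counts higher/lower of tested beside each bar and dashed lines at the share of all genes. All 9 β-catenin targets are higher with dose, 14 of 39 MYC-activated genes are higher in clones, and 8 of 11 germline genes are higher in high than in low clones.

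The list of regulators of *Myc* transcription held WNT, LIF and MAPK pathway genes, among them feedback genes such as *Spry4* and *Dusp6*. Several of these pathway genes moved with dose and in the clones. With dose 7 of 15 rose and 2 fell (5.89% and 6.63% of all genes), 4 and 2 with either 0 µM library left out, and 3 and 0 without both. *Lef1* (9.92 ± 2.50 to 43.8 ± 1.93 CPM, adjusted p = 8.24e-06) and *Gbx2* (18.6 ± 3.71 to 87.4 ± 1.12 CPM, adjusted p = 3.05e-07) rose, and *Tcf7l1*, the repressive TCF of ES cells, fell (141 ± 14.4 to 76.2 ± 6.17 CPM, adjusted p = 2.99e-05). In clones against untreated cells 5 rose and 1 fell (9.94% and 9.74% of all genes), led by the MAPK feedback gene *Spry4* (5.30 times, adjusted p = 0.00496) and *Gbx2* (4.93 times, adjusted p = 0.00103). With either untreated library left out 1 of 15 passed.

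Between high and low clones 6 of 14 of these pathway genes rose and 3 fell, where 13.1% and 16.6% of all genes did. Without T41S clone H8 the counts were 4 and 2, and by the order of mutations 3 and 1. *Klf4*, a pluripotency factor downstream of LIF, was 3.85 times higher (797 ± 139 CPM, n = 9, against 213 ± 49.8, n = 3, adjusted p = 4.57e-08), and *Tcf7l2* (log2 -1.35) and *Lef1* (-0.97) were lower (adjusted p = 0.000973 and 0.015). *Klf4* was also 1.63 times higher in high than in medium clones (adjusted p = 0.0163), where *Tcf7l1* was 1.93 times lower (adjusted p = 0.00989). Medium clones had 4 higher and 2 lower than low clones (3.66% and 7.29% of all genes), and 1 and 1 without T41S clone H8. By codon *Tcf7l1* was lower at codon 37 (73.7 ± 11.1 against 124 ± 11.4 CPM, adjusted p = 0.0489), in the same direction as *Mycn*.

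β-catenin targets other than *Myc* were read as a check of activation. All 9 tested rose with dose (5.89% of all genes), also without both 0 µM libraries, with *Nkd1* at 9.40 ± 0.232 CPM untreated and 63.3 ± 20.2 at 10 µM (adjusted p = 1.5e-09) and *Cdx1* at 28.2 ± 0.697 and 299 ± 11.5 (adjusted p = 8.22e-09). In clones against untreated cells 4 of 8 rose (9.94% of all genes), among them *Cdx1* (6.04 times, adjusted p = 0.0452) and *Sp5* (4.73 times, adjusted p = 0.00177). This count was 0 without replicate 1 of the untreated libraries and 2 without replicate 2, and with all 10 unedited libraries as the reference 0 rose and 2 fell. *Cdx1* rose with category, from 34.2 ± 1.71 CPM in low through 70.5 ± 10.3 in medium to 247 ± 59.8 in high clones (high against low, adjusted p = 3.6e-08). Of 8 targets, 2 rose and 1 fell between high and low clones (13.1% and 16.6% of all genes; 1 and 0 by the order of mutations), 3 rose between high and medium, 1 rose and 1 fell between medium and low (0 and 1 without T41S clone H8), and 1 (*T*) was higher at codon 37.

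The genes most like *Myc* over all 25 libraries, by Pearson's r of log2(CPM + 1) among the 7090 genes averaging 20 CPM or more, were *Sfpq* (0.971), *Trir* (0.967), *Mat2a* (0.967), *Eif4g2* (0.965) and *Etf1* (0.964). All 5 differed between the clones and the unedited libraries, for example *Mat2a* at 50.4 ± 9.11 and 344 ± 84.5 CPM, and these correlations describe that single split. None of the 5 was among the leading 5 by Spearman's rho. Over the 15 clones alone the leading genes were *Dcaf7* (0.854), *Hexim1* (0.850), *Dusp6* (0.842), *Mob1a* (0.834) and *Nup50* (0.832), of which 2 stayed with Spearman's rho. *Dusp6*, a MAPK feedback phosphatase gene, averaged 152 CPM in low, 98.6 in medium and 116 in high clones. These correlations share libraries and depth and are descriptions without a test.

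*Myc* and *Mycn* were weakly related over the 15 clones (Pearson's r = 0.26, Spearman's rho = 0.33). *Myc* had its closest relation to *Max* among the members by Pearson's r (0.59, rho = 0.36), though by rho *Mxd4* was closer (0.68), and S37F clone H2 was the lowest clone for both. In that clone *Mycl* was the highest.

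The nearest genes of *Myc* on chromosome 15 that averaged 20 CPM or more lay 1939 to 6938 kb away and did not all move with it. Of these 5 genes on each side, *Washc5* rose (99.5 ± 16.6 against 58.1 CPM untreated, 1.69 times, adjusted p = 0.0106) and *Ndrg1* fell as given above, and the other 8 did not pass (adjusted p 0.0527 to 0.82). *Washc5* exceeded all 10 unedited libraries in 15 clones, *Mtss1* in 14 and *Fam49b* in 13, and the others did so in 0 to 9. *Pvt1*, the noncoding neighbour of *Myc*, averaged 16.7 ± 4.46 CPM in unedited libraries (n = 10) and 17.0 ± 4.70 in clones (n = 15). The median shift of 282 chromosome 15 genes relative to all genes was -0.10 to 0.15 log2 per clone, and the highest was S37C clone G12.

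Markers of cell types other than ES cells were low or varied by list. Of 6 primitive endoderm markers, 0 were tested with dose and 1 of 4 (*Gata6*) was higher in high than in low clones (13.1% of all genes), a call lost without T41S clone H8 and by the order of mutations. Their sum was 2.66 to 247 CPM in clones. Of the mesendoderm markers *Mixl1* and *T* rose with dose, *Eomes* was higher in high than in medium clones and lower in medium than in low clones (the latter lost without T41S clone H8), and *T* was higher at codon 37. Of the neural markers *Tubb3* fell with dose, which was lost without both 0 µM libraries. In high against low clones 4 of 4 tested were lower (16.6% of all genes), with 2 of 4 lower in high than in medium clones and 1 of 4 (*Nes*) lower in medium than in low clones. *Sox1*, too low to be tested, went the other way, averaging 1.57 CPM in low, 2.06 in medium and 3.25 in high clones. Of the trophoblast markers *Gata3*, *Krt8* and *Krt18* rose and *Tfap2c* fell with dose, and 0 passed without both 0 µM libraries. *Tfap2c* was lower in clones than in untreated cells, which was lost with either untreated library left out, and lower in high than in medium clones. In high against low clones 3 of 3 tested were lower (16.6% of all genes), for example *Krt8* (125 ± 47.2 against 987 ± 659 CPM, adjusted p = 2.25e-07), and 2 of 3 were lower in medium than in low clones. *Cdx2*, *Elf5* and *Gata3* were too low to be tested there.

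Of the fibroblast and feeder markers *Col1a1* was lower in high and in medium than in low clones, and their sum was 4.82 to 169 CPM in clones. ES cell markers fell with dose (8 of 10, against 6.63% of all genes, and 2 of 10 without both 0 µM libraries). *Zfp42* rose and *Tdgf1* fell in clones against untreated cells, and 0 of 10 passed with either untreated library left out. In high and in medium against low clones 5 of 10 were higher (13.1% and 3.66% of all genes), which became 4 higher and 1 lower, and 2 higher, without T41S clone H8, with *Esrrb* at 556 ± 50.03 CPM in high and 204 ± 77.5 in low clones (adjusted p = 1.05e-06). The part of these cell types in the values of the family was not tested.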

How the data were processed

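The deposited values are raw, deduplicated UMI counts per gene that the authors made from 3′ reads, per the labels and the study's methods with FastQC 0.73, UMI-tools, Picard, bedtools 2.30.0 and featureCounts 2.0.1 on mm10. The annotation release and the strand setting are not given in the sources used here. All 25 columns of 48440 genes were used, at 306157 to 2083398 counts, and symbols came from GENCODE M21 (GRCm38), which held 48058 of the IDs (40606 with the same version). CPM used total counts.

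Comparisons used the quasi-likelihood F-test of edgeR 4.0.16 in R 4.3.3, on TMM-scaled libraries, after filterByExpr (min.count 10), at a Benjamini-Hochberg false discovery rate of 0.05 over the genes tested. SE is the log2 change divided by the square root of F. The fits were the dose slope over 10 unedited libraries, the 15 clones against 2 untreated libraries, 3 MES categories over the 15 clones, and codon 37 against codon 41 over the 9 high clones. Fits were tested on simulated data with known changes.

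The members and lists were chosen with earlier results of these data known. Lists are described by counts, with the shares of all genes given once for each comparison, and without a set test. *Wdr5* is in 2 lists, the cofactors and the MGA-MAX partners, and *Lef1* and *T* are also in 2. Named were all members, per list and comparison the 2 highest and 2 lowest of the genes past the threshold that averaged 20 CPM or more (some others are named only as counted), the 5 genes most like *Myc* and its 5 nearest genes on each side. Alternatives were RLE size factors, DESeq2 1.42.0, no filter, each library left out, a replicate block, a block by mitochondrial share, other references, counts summed per mutation, the order of mutations, TMM-scaled CPM and Spearman's rho. Chosen after seeing the data were the dose fit in libraries of higher mitochondrial share and without the 0 µM libraries. One gene that the naming rule selects is not reported here.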

Additional observations from a re-analysis of the deposited data

Results flagged for a closer look

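Of 27 groups tested for a library far from the others (9 members in 3 groups of high clones), 1 had one, and chance alone would give about 1 in 20. *Mycl* in S37F clone H2 was 25.1 CPM among the 5 codon 37 clones, where the next was 15.2 and the gap took 0.773 of the range (critical value 0.71).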

How the results depend on the processing

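Counts of genes past the threshold, over all genes, moved with the libraries and settings used, and the cause was not tested. Leaving out 1 library gave 527 to 1325 genes with dose (1256 with all), 386 to 2667 for clones against untreated cells (2168), 1653 to 3264 for high against low (3110), 106 to 811 for high against medium (471), 276 to 1433 for medium against low (1145) and 0 to 6 by codon (7). The 0 came from edgeR without S37A clone A10, S37C clone G12 or T41A clone C1, with 753, 754 and 815 genes at an unadjusted p under 0.05. The dose fit gave 121 genes without both 0 µM libraries, a setting chosen after seeing the data. Clones against all 10 unedited libraries gave 5482. The order of mutations gave 1871 in place of high against low. Counts summed per mutation gave 240 for high against medium and 3 by codon, no filter gave 739 and 126, and DESeq2 gave 29 by codon. The other 21 such counts under settings that left out no single library stayed within 1.5 times. Some members past no threshold changed sign: *Mga* between medium and low clones was 0.017 log2 without a filter. Leaving out 1 library gave -0.086 to 0.44 for *Mga* between high and low clones and -0.30 to 0.22 between medium and low. It gave -0.21 to 0.26 for *Mxd3* between high and medium, -0.15 to 0.12 for *Max* and -0.086 to 0.26 for *Mlx* between medium and low, and -0.26 to 0.14 for *Myc* by codon. With TMM-scaled levels the *Myc* ratio of clones over untreated was 6.44 in place of 6.46. With the replicate number as a replicate block, dose gave 1140 genes. The numbers did not pair the unedited libraries (correlation of deviations -0.136 to 0.118 over 10 pairs of doses, median 0.00219, 2 over 0.1). Depth limits *Mxd4*, *Mycl* and the unedited *Myc* values most, since they rest on few counts.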
